A study of Mus musculus with 8 samples.

Results

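The genes described here are 10 markers of fibroblasts and of the mesenchymal matrix: Vim, Fn1, Sparc, Postn, Dcn, Lum, Pdgfra, Pdgfrb, Fap and Thy1. They were chosen as a fixed list of gene symbols, with no measured value in the rule. All 10 were among the 24419 gene symbols of the count table, and all 10 were among the 15875 genes that passed the filter on low counts. RNA was sequenced from 4 orthotopic mouse models of endometrial cancer, with 2 libraries per model, 8 in all. Each model started from uterus organoids of CAG-Cas9-EGFP mice, in which the broadly active CAG promoter drives Cas9 and EGFP, and the edited organoids were injected into the left uterus of 8-week-old female nude mice, which lack a thymus. The edits of TPM included an sgRNA against Trp53, the gene of the p53 tumor suppressor, together with overexpression of Myc. TPMPik3ca carried the edits of TPM plus a cDNA of mutant Pik3ca, the catalytic subunit of PI3K, from a retroviral vector. TPMPik3r1 carried the edits of TPM plus an sgRNA against Pik3r1, the regulatory subunit of PI3K. The edits of TPK also included an sgRNA against Trp53 but no Myc vector. The study writes TPMCa for TPMPik3ca and TPMR1 for TPMPik3r1. The labels name the material EC tumor organoids, whereas the study's methods describe tumor tissue, and the labels do not say whether host cells were part of a library.

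Fibroblasts are the cells that make and remodel the connective tissue around an epithelium. They secrete collagens, adhesive glycoproteins such as fibronectin, and small proteoglycans that space the collagen fibrils, and they respond to PDGF ligands through a pair of receptor tyrosine kinases. Several of these genes are also made by other cells: Vim by endothelial cells, leukocytes and carcinoma cells that have lost epithelial character, Pdgfrb by pericytes, Sparc by endothelium, and Thy1 by T cells and neurons. In the endometrium a cellular stroma surrounds the glands, and its fibroblasts express Pdgfra, Dcn and Lum. In bulk RNA, fewer cells of a type and less RNA per cell cannot be told apart.

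The libraries held between 15748396 and 26943611 counts, the most in TPMPik3r1 replicate 1. Levels are given as CPM, that is, relative to the library total after TMM scaling. A floor of 3 counts corresponded to between 0.116 and 0.198 CPM, and the lowest level of any of the 10 genes in any library was 3.6 CPM, for Lum. All of them were thus far above the floor, and counting error is small beside the spread between libraries. Myc, the overexpressed gene, was at 154 and 92.8 CPM in TPK and between 324 and 3075 CPM in the other 6 libraries. Pik3ca, whose cDNA was delivered to TPMPik3ca, was at 89.9 and 83.3 CPM there and between 60.9 and 80.1 CPM in the other 6 libraries, a narrow margin. Pik3r1 was at 101 and 51.3 CPM in TPMPik3r1, 78.1 and 80.9 CPM in TPMPik3ca, 99.6 and 188 CPM in TPM, and 159 and 156 CPM in TPK, and an sgRNA need not lower the RNA of its target. The 2 libraries of TPMPik3r1 stood apart from each other more than those of any other model, with 17.7% of the tested genes over 4-fold apart, against between 4.64 and 7.93% in the other models. For that reason the medians of the 10 genes, the values of Vim, Postn, Pdgfra and Sparc, and the calls among related genes in TPMPik3r1 are also given without each of its libraries.

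Among the 10 genes, Postn and Pdgfra shared a pattern that no other member had: both TPMPik3ca libraries were above all others, and both TPMPik3r1 libraries were below both TPM libraries. The share of all tested genes with that pattern was not computed. The upstream sequences of both genes are shown because they shared it. The windows are the 250 bases before a RefSeq start site in GRCm38.p6, 5′ to 3′ on the strand of the gene. The Postn window is chr3:54360857-54361106 on the plus strand, from the more downstream of 2 listed starts, and the Pdgfra window is chr5:75152001-75152250 on the plus strand. Capitals mark matches of the motifs named next.
Postn: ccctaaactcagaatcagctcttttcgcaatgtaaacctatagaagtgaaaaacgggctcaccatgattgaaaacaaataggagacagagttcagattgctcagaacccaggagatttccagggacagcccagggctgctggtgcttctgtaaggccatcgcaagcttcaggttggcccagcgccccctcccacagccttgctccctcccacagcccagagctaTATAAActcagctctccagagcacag
Pdgfra: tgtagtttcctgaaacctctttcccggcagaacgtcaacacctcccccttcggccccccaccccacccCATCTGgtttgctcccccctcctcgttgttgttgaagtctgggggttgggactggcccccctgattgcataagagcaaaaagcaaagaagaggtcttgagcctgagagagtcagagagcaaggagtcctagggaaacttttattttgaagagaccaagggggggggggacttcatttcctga
The motifs searched on both strands were the TATA box TATAAA, the CCAAT box CCAAT, the GC box GGGCGG, the AP-1 site TGANTCA, the E-box CANNTG and the TEAD site CATTCC. The Postn window held a TATA box 26 bases before the start site and no other match, and 12.4% of 32851 promoter windows of the same length held one. The Pdgfra window held an E-box, CATCTG, 182 bases before the start site, and 66.2% of the windows held an E-box. The matches did not overlap, and the 2 windows shared no motif of this set. A match is a description of the letters only. Postn spans chr3:54361109-54391037 and Pdgfra chr5:75152292-75198215 in GENCODE M21, both on the plus strand and both protein-coding. Pdgfra overlaps antisense transcripts over 599 and 451 bases, and Fn1 overlaps an antisense gene over 364 bases. Whether the counting used strand is not given in the sources used here, so reads in those stretches cannot be assigned to a strand.

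Vim encodes vimentin, the intermediate filament protein of mesenchymal cells. It spans chr2:13573927-13582826 on the plus strand. Vim was at 451 and 206 CPM in TPK, 344 and 176 CPM in TPM, 2592 and 2287 CPM in TPMPik3ca, and 261 and 1692 CPM in TPMPik3r1. Both TPMPik3ca libraries were above the other 6, TPK and TPM overlapped, and the 2 TPMPik3r1 libraries fell on either side of the highest TPK value. The mean was 2440 ± 216 CPM (SD, n = 2) in TPMPik3ca against 260.2 ± 119 CPM (SD, n = 2) in TPM. The log2 fold change was 3.23 with an SE of 0.92, with an unadjusted p of 0.0103 and an adjusted p of 0.110 by edgeR's quasi-likelihood test with Benjamini-Hochberg adjustment over all tested genes. The difference therefore missed the threshold of an adjusted p under 0.05. DESeq2 put the same difference past the threshold, with an adjusted p of 0.00198, and over 14 alternative settings the adjusted p lay between 0.00198 and 0.414.

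Fn1 encodes fibronectin, an adhesive glycoprotein that binds integrins and collagens, and spans chr1:71585520-71653200 on the minus strand. Fn1 was at 2297 and 700 CPM in TPK, 627 and 592 CPM in TPM, 2887 and 2543 CPM in TPMPik3ca, and 182 and 4744 CPM in TPMPik3r1. TPMPik3r1 held both the lowest and the highest library of the series, which differed by 4.70 on the log2 scale. Both TPMPik3ca libraries were above both TPM libraries, with a log2 fold change of 2.15, an SE of 1.28 and an adjusted p of 0.36 in edgeR.

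Sparc encodes osteonectin, a collagen-binding matrix glycoprotein, and spans chr11:55394500-55423183 on the minus strand. Sparc was at 1490 and 507 CPM in TPK, 904 and 499 CPM in TPM, 1377 and 1783 CPM in TPMPik3ca, and 1144 and 1538 CPM in TPMPik3r1. It had the smallest range of the 10 genes, 1.84 on the log2 scale over all 8 libraries. All 4 libraries of TPMPik3ca and TPMPik3r1 were above both TPM libraries, but TPK replicate 1 lay among them. Against TPM the log2 fold change was 1.17 with an SE of 0.57 in TPMPik3ca and 0.93 with an SE of 0.57 in TPMPik3r1, and neither passed the test in edgeR or DESeq2. The latter value was 1.13 without TPMPik3r1 replicate 1 and 0.70 without replicate 2.

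Postn encodes periostin, a secreted protein that crosslinks matrix and binds integrins. Postn was at 258 and 560.1 CPM in TPK, 699 and 207 CPM in TPM, 1269 and 819 CPM in TPMPik3ca, and 38.1 and 92.0 CPM in TPMPik3r1. The order was TPMPik3ca highest, TPK and TPM overlapping in the middle, and TPMPik3r1 lowest. Postn was the only 1 of the 10 genes for which both TPMPik3r1 libraries lay below the other 6, and 7.43% of all tested genes did so. The log2 fold change of TPMPik3r1 against TPM was -2.80 with an SE of 0.76, an unadjusted p of 0.00855 and an edgeR adjusted p of 0.0883. Against TPMPik3ca it was -4.00 with an SE of 0.81, an unadjusted p of 0.00182 and an edgeR adjusted p of 0.364. Neither passed, although DESeq2 called both, with adjusted p-values of 0.00242 and 3.31e-05. Without TPMPik3r1 replicate 1 the log2 fold change was -2.30 against TPM and -3.50 against TPMPik3ca, and without TPMPik3r1 replicate 2 it was -3.57 and -4.77.

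Dcn encodes decorin and Lum lumican, small leucine-rich proteoglycans that bind collagen fibrils. They are neighbors on the plus strand of chromosome 10, Dcn at chr10:97479609-97518143 and Lum at chr10:97565128-97572703. Dcn was at 470.1 and 87.6 CPM in TPK, 79.0 and 71.2 CPM in TPM, 96.7 and 475 CPM in TPMPik3ca, and 26.6 and 385 CPM in TPMPik3r1. Lum was at 128 and 32.8 CPM in TPK, 63.1 and 43.9 CPM in TPM, 30.6 and 221 CPM in TPMPik3ca, and 3.6 and 70.6 CPM in TPMPik3r1. In both genes 1 library of TPK, TPMPik3ca and TPMPik3r1 was high and the other low, while the 2 TPM libraries were close together. Within models the SD of log2 CPM was 1.80 for Dcn and 1.95 for Lum, larger than the SD of the model means, 0.75 and 1.05. No difference between models can be read from these 2 genes beyond that spread.

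Pdgfra and Pdgfrb encode the alpha and beta receptors for PDGF, found on fibroblasts and, for the beta receptor, on pericytes. Pdgfra was at 94.2 and 15.4 CPM in TPK, 87.1 and 40.7 CPM in TPM, 113 and 226 CPM in TPMPik3ca, and 13.9 and 35.5 CPM in TPMPik3r1. Both TPMPik3ca libraries were the highest of the 8, and both TPMPik3r1 libraries were below both TPM libraries, with TPK replicate 2 lying between them. The log2 fold change of TPMPik3r1 against TPMPik3ca was -2.78 with an SE of 0.94, an unadjusted p of 0.0225 and an edgeR adjusted p of 0.389, which did not pass. DESeq2 gave an adjusted p of 0.0453, just past the threshold. The value was -2.25 without TPMPik3r1 replicate 1 and -3.61 without replicate 2. Against TPM the value of -1.37 became -0.85 and -2.20 in these 2 fits. Pdgfrb was at 58.1 and 15.3 CPM in TPK, 77.9 and 57.1 CPM in TPM, 70.0 and 84.6 CPM in TPMPik3ca, and 27.7 and 176 CPM in TPMPik3r1. Its highest library was in TPMPik3r1, both TPMPik3ca libraries were above both TPK libraries, and the other pairs of models overlapped. The 2 receptors thus took different orders across the models. Per kilobase of exon, the ratio of the Pdgfra level to the Pdgfrb level was 0.89 and 1.46 in TPMPik3ca, 0.27 and 0.11 in TPMPik3r1, 0.89 and 0.55 in TPK, and 0.61 and 0.39 in TPM, so the 2 TPMPik3r1 libraries had the lowest ratios.

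Fap encodes fibroblast activation protein, a surface protease of activated fibroblasts, at chr2:62500943-62574075 on the minus strand. Fap was at 6.7 and 8.6 CPM in TPK, 6.1 and 7.5 CPM in TPM, 26.4 and 25.2 CPM in TPMPik3ca, and 6.8 and 26.3 CPM in TPMPik3r1. It followed Vim: both TPMPik3ca libraries and TPMPik3r1 replicate 2 were high, and the other 5 libraries were low. Against TPM, Fap in TPMPik3ca had a log2 fold change of 1.92 with an SE of 0.65, an unadjusted p of 0.0218 and an edgeR adjusted p of 0.155. DESeq2 gave an adjusted p of 0.0319. Thy1, a glycolipid-anchored surface protein of fibroblasts, T cells and neurons, lies at chr9:44043384-44048579 on the plus strand. Thy1 was at 49.1 and 12.8 CPM in TPK, 24.7 and 38.7 CPM in TPM, 19.1 and 56.4 CPM in TPMPik3ca, and 4.3 and 34.1 CPM in TPMPik3r1. The models overlapped for Thy1. The summed level of 6 T cell genes was 13.1 and 5.08 CPM in TPK, 3.55 and 3.60 CPM in TPM, 7.85 and 34.6 CPM in TPMPik3ca, and 1.47 and 3.11 CPM in TPMPik3r1. The 2 libraries highest in Thy1, TPMPik3ca replicate 2 and TPK replicate 1, were also the 2 highest in these genes, and the library lowest in Thy1, TPMPik3r1 replicate 1, was the lowest in them. The summed level of 5 neuron genes lay between 4.24 and 40.6 CPM. The part of T cells and neurons in the Thy1 level was not tested.

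**Figure D1:**
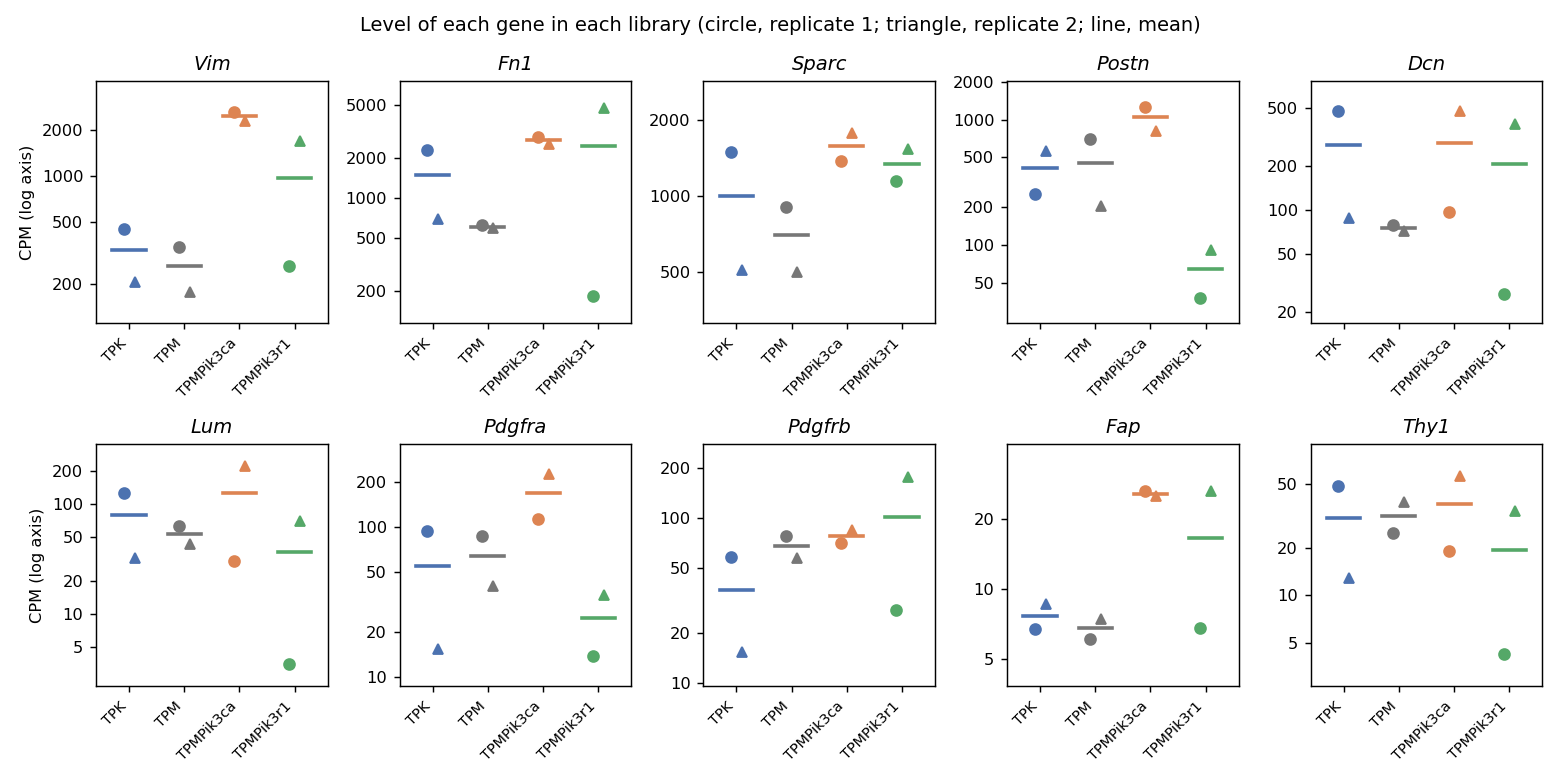
Each panel plots the CPM of 1 gene on a log axis in the 8 libraries, by model, with replicate 1 as a circle, replicate 2 as a triangle and the mean as a line. Vim, Postn and Pdgfra had both TPMPik3ca libraries above the other 6, while the 2 TPMPik3r1 libraries of Fn1 were at 182 and 4744 CPM.

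Over all 10 genes, both TPMPik3ca libraries were above the other 6 for 3 genes, Vim, Postn and Pdgfra, beside 6.03% of all tested genes. The replicate spread of the 10 genes was large in TPK and TPMPik3r1. In TPK the median size of the log2 difference between its libraries was 1.81 over the 10 genes, against 0.398 over all tested genes, and 8 of the 10 were higher in replicate 1, with Postn and Fap as exceptions. In TPMPik3r1 it was 2.68, against 0.680 over all tested genes, and all 10 were lower in replicate 1. The median was 0.584 against 0.348 in TPM and 0.502 against 0.491 in TPMPik3ca. TPM and TPMPik3ca were thus the models whose libraries were most alike for these genes, except that Dcn and Lum were over 4-fold apart in TPMPik3ca. For Fn1, Sparc, Dcn, Lum, Pdgfrb and Thy1 the within-model SD exceeded the SD of the model means, and for Vim, Postn, Pdgfra and Fap it did not.

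**Figure D2:**
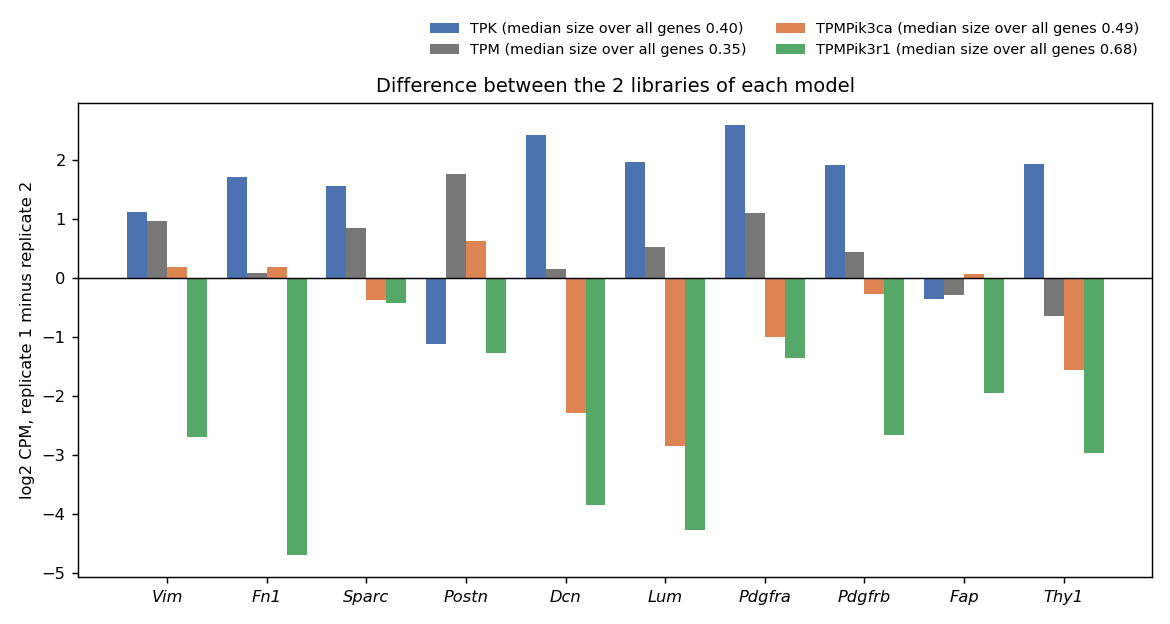
Bars show, for each gene and model, the log2 CPM of replicate 1 minus that of replicate 2. All 10 bars of TPMPik3r1 are below 0, down to -4.70 for Fn1, and 8 of the 10 bars of TPK are above 0.

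Levels of different genes can be compared only per length, so CPM was divided by the exon length of each gene in kilobases. On that scale Sparc was the highest of the 10 genes in 5 libraries, both of TPK, both of TPM and TPMPik3r1 replicate 1. Vim was the highest in both TPMPik3ca libraries, and Fn1 in TPMPik3r1 replicate 2, level with Sparc at 406 CPM per kilobase each. Fap was the lowest in 7 of the 8 libraries, and Pdgfra was the lowest in TPMPik3r1 replicate 2. Of the summed level of the 10 genes per kilobase, Vim held 40.0 and 32.2% in TPMPik3ca, between 10.7 and 14.0% in TPK and TPM, and 14.1 and 26.9% in TPMPik3r1. Sparc alone held 77.0% in TPMPik3r1 replicate 1, against between 26.6 and 46.2% in the other 7 libraries. Postn held 1.12 and 0.798% in TPMPik3r1 and between 3.35 and 18.9% in the other 6. The ratio of Vim to Sparc per kilobase was 1.50 and 1.02 in TPMPik3ca and between 0.24 and 0.32 in TPK and TPM, so these models did not overlap in it. The ratio of Dcn to Lum was 3.13 and 2.28 in TPMPik3r1, the 2 highest of the 8 libraries.

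**Figure D3:**
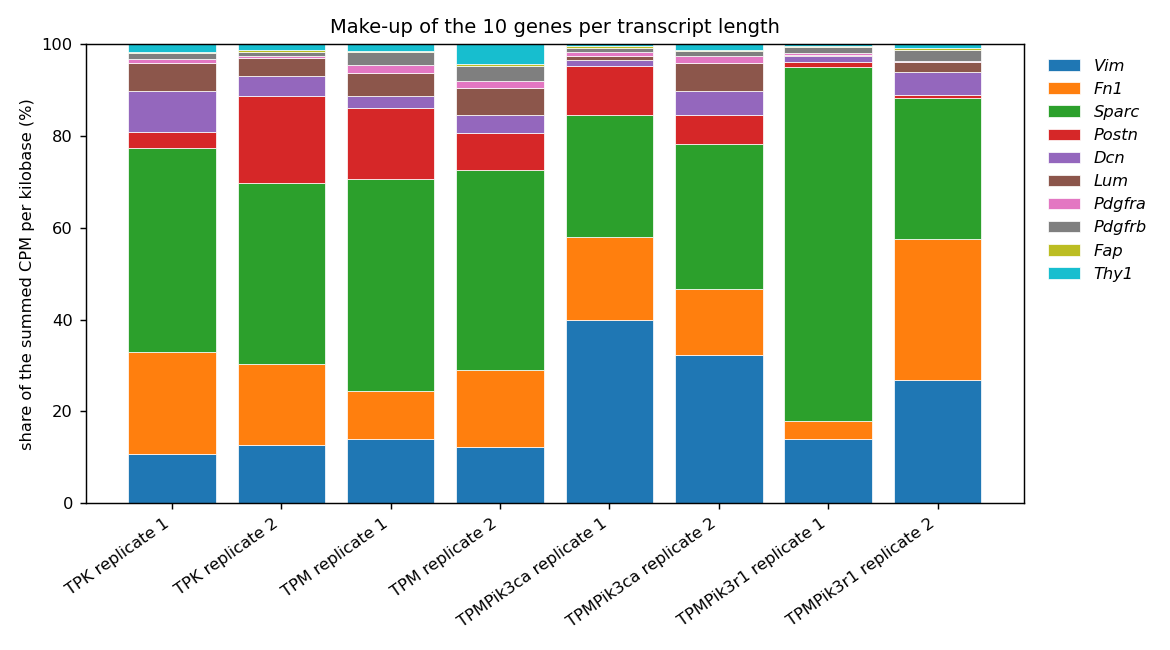
Stacked bars give the share of each gene, in percent, of the summed CPM per kilobase of the 10 genes in each library. Vim takes 40.0 and 32.2% in TPMPik3ca, and Sparc takes 77.0% in TPMPik3r1 replicate 1.

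How the 10 genes varied together was described by Pearson's r of log2 CPM over the 8 libraries, which share models, so no p is given. The highest values were 0.949 for Lum with Thy1, 0.925 for Vim with Fap, 0.875 for Dcn with Lum and 0.860 for Fn1 with Dcn. The lowest were -0.015 for Postn with Sparc and 0.047 for Pdgfrb with Postn. Fn1 followed the mean of the other 9 most closely, with r of 0.896, and Postn least, with 0.403. Of 10405 genes with a mean log2 CPM of at least 3, the 5 closest to the mean profile of the 10 genes were Col5a1 with r of 0.979, Rcn3 with 0.971, Mxra8 with 0.969, Loxl1 with 0.968 and Col1a1 with 0.967. Col5a1, a fibrillar collagen chain, was at 351 and 97.1 CPM in TPK, 290 and 122 CPM in TPM, 630 and 680.3 CPM in TPMPik3ca, and 42.9 and 601 CPM in TPMPik3r1. Col1a1, the main chain of type I collagen, was lowest in TPMPik3r1 replicate 1, at 292 CPM, and highest in TPMPik3ca replicate 2, at 6738 CPM. These 5 genes were picked for their likeness to the 10, so the likeness is a description only.

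A test of any difference among the 4 models called 0 of the 10 genes at an edgeR adjusted p under 0.05, beside 7.32% of all tested genes. At an unadjusted p under 0.05 it gave 2, Vim with p of 0.0230 and Postn with p of 0.0110, beside 27.9% of all genes, so the share of the 10 was no higher than the background. The adjusted values of these 2 genes in edgeR were 0.120 and 0.0860. DESeq2 called 3, Vim, Postn and Fap, beside 30% of all genes. An exact permutation test of log2 CPM, over the 105 ways to split 8 libraries into 4 pairs, was run for each of the 10 genes. It gave an unadjusted p of 0.0476 for Postn, 0.162 for Vim and between 0.219 and 0.762 for the other 8, where the smallest p it can give is 0.00952. A p that misses the threshold does not show that the models were alike, and the SE of most fold changes below is near 1 on the log2 scale.

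The comparison of TPMPik3ca with TPM asks what mutant Pik3ca adds to the edits of TPM. All 10 log2 fold changes were positive, from 0.20 for Pdgfrb to 3.23 for Vim, with a median of 1.32 against -0.013 over all tested genes. The edgeR test called 0 of the 10, beside 3.48% of all genes. At an unadjusted p under 0.05 it gave 2, Vim and Fap, beside 22.1%. Both TPMPik3ca libraries were above both TPM libraries for 7 of the 10, Vim, Fn1, Sparc, Postn, Dcn, Pdgfra and Fap, beside 29.1% of all genes. Of these, Dcn had a log2 fold change of 1.93 with an SE of 1.34, Pdgfra 1.41 with an SE of 0.90, and Postn 1.20 with an SE of 0.72. For the 3 genes with overlap, the log2 fold changes were 1.24 for Lum, 0.25 for Thy1 and 0.20 for Pdgfrb, all smaller than their SEs of 1.40, 1.05 and 0.89. DESeq2 called 2, Vim and Fap, beside 16% of all genes. The study's own threshold asks for a log2 fold change beyond 1 with an unadjusted p under 0.05, in DESeq2. Here and below it was applied to edgeR's values unless DESeq2 is named. With edgeR's values the same 2 passed it, beside 18.9%. With DESeq2's values Sparc passed it as well, at a log2 fold change of 1.19 and an unadjusted DESeq2 p of 0.0495. The share of all genes for DESeq2's values was not computed. TPMPik3r1 takes no part in this comparison but adds to the shared spread. Without either of its libraries the edgeR log2 fold changes of Vim and Fap were again 3.23 and 1.92. A fit of TPMPik3ca and TPM alone called 3, Vim, Fn1 and Fap, beside 7.52% of all genes, a larger share than in the main fit.

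The comparison of TPMPik3r1 with TPM asks what the edit of Pik3r1 adds. Its 10 log2 fold changes went both ways, 6 above and 4 below 0, with a median of 0.76 against 0.031 over all tested genes. The edgeR test called 0 of the 10, beside 5.58% of all genes. Postn, at -2.80, was the 1 gene with an unadjusted p under 0.05, beside 23.1% of all genes, and DESeq2 called that 1, beside 18.1%. It also passed the study's threshold with edgeR's values, as 20.1% of all genes did. With DESeq2's values Vim passed that threshold as well, at a log2 fold change of 1.92 and an unadjusted DESeq2 p of 0.0251. Sparc was the 1 gene with both TPMPik3r1 libraries above both TPM libraries, beside 24.5%, and Postn and Pdgfra were the 2 with both below, beside 28.4%. Other values were 1.91 with an SE of 0.87 for Vim, 2.01 with an SE of 1.27 for Fn1, 1.28 with an SE of 0.64 for Fap and -1.37 with an SE of 0.90 for Pdgfra. The sum over the 10 genes was 1709 CPM in replicate 1 and 8792 CPM in replicate 2, against 2913 and 1734 CPM in TPM. Replicate 2 was thus far above TPM in this sum, and replicate 1 just under the lower TPM library. In replicate 1, Sparc alone was at 1144 CPM. Fn1, Postn, Dcn, Lum, Pdgfra, Pdgfrb and Thy1 were below both TPM libraries there, and Vim and Fap lay between them. Without replicate 1 the median was 1.26, and without replicate 2 it was -1.62, a change of direction. The values for Vim were 2.70 without replicate 1 and 0.007 without replicate 2. No member passed in edgeR without either library.

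Between TPMPik3r1 and TPMPik3ca, 9 of the 10 log2 fold changes were negative and only that of Pdgfrb was positive, with a median of -0.81 against 0.015 over all tested genes. The edgeR test called 0 of the 10 and 0% of all genes. Postn and Pdgfra were the 2 genes with an unadjusted p under 0.05, beside 11.8% of all genes, and DESeq2 called these 2, beside 4.96%. Both passed the study's threshold, as did 10.5% of all genes. For 3 genes, Postn, Pdgfra and Vim, both TPMPik3r1 libraries were below both TPMPik3ca libraries, beside 17.7%. The value for Vim was -1.32 with an SE of 0.85. Without TPMPik3r1 replicate 1 the median was -0.093, and without replicate 2 it was -3.32. In the latter fit the log2 fold changes were -3.22 for Vim, -3.90 for Fn1 and -4.77 for Postn.

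TPK and TPM were not separated beyond the spread of their libraries. The log2 fold changes of TPK against TPM ran from -0.88 for Pdgfrb to 1.89 for Dcn, with a median of 0.26 against 0.012 over all tested genes, and 8 of the 10 were smaller than their SE. The edgeR test called 0 of the 10 and 0% of all genes, and 0 of the 10 had an unadjusted p under 0.05, beside 7.17% of all genes. DESeq2 also called 0 of the 10, beside 1.51%, and 0 passed the study's threshold, beside 5.28%. Both TPK libraries were above both TPM libraries for 2 genes, Fn1 and Dcn, beside 24.4%. Without TPK replicate 1 the median was -0.41.

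TPK was also set against the mean of TPMPik3ca and TPMPik3r1, a contrast that the study also drew. TPK differs from them in several edits, the Myc vector among them. The edgeR test called 0 of the 10, beside 14.4% of all genes. Vim, at -2.23 with an SE of 0.82, and Fap, at -1.43 with an SE of 0.58, were the 2 with an unadjusted p under 0.05, beside 32%. Their edgeR adjusted p-values were 0.115 and 0.146, and DESeq2 called both, beside 28.4% of all genes. Both also passed the study's threshold, beside 25.2%. No member separated all libraries of TPK from all 4 of the others, beside 22.4% of all genes that did so with TPK higher and 18.5% with TPK lower. Pdgfrb had a value of -1.27 with an SE of 0.81. The median was -0.39 against -0.002 over all tested genes, and without TPMPik3r1 replicate 2 it was 0.61. Without TPMPik3r1 replicate 1, the edgeR values were -2.63 for Vim and -1.76 for Fap. These comparisons share libraries, so their values are not independent of each other.

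**Figure D4:**
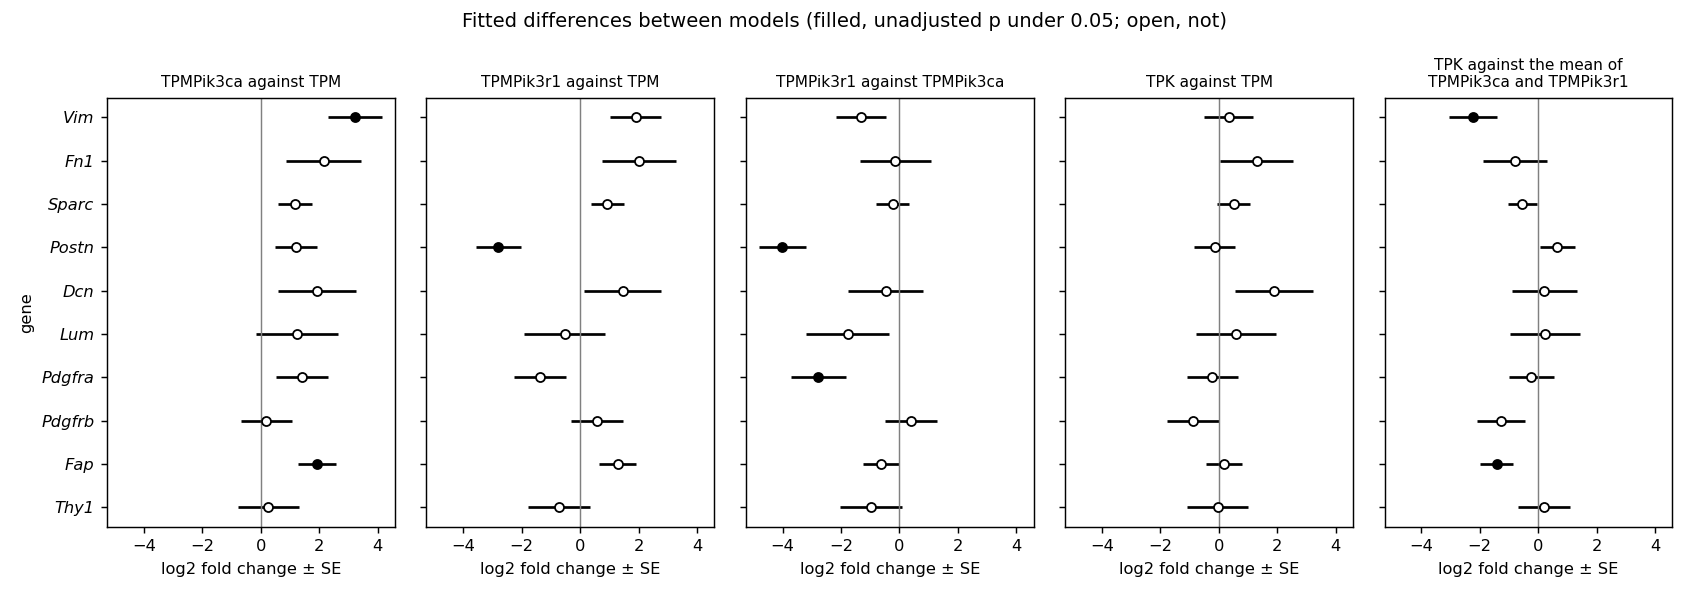
Points give the fitted log2 fold change of each gene in the 5 comparisons, and bars its SE. Filled points have an unadjusted p under 0.05. None of these values passed at an adjusted p under 0.05 in edgeR, and in TPMPik3ca against TPM all 10 points lie above 0.

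The partners of the 10 genes were read from lists of related genes in the same fits. As background, 0.466% of all tested genes rose and 3.02% fell in TPMPik3ca against TPM, 1.08% rose and 4.5% fell in TPMPik3r1 against TPM, and 10.3% were higher and 4.06% lower in TPK than in the mean of TPMPik3ca and TPMPik3r1. In edgeR 0 of all tested genes passed in TPK against TPM or in TPMPik3r1 against TPMPik3ca, with 7.17 and 11.8% at an unadjusted p under 0.05. Of the 152 related and marker genes tested, DESeq2 called 3 in the first of these, beside 1.51% of all genes. In the second it called 26, beside 4.96% of all genes. Unless DESeq2 is named, a gene below passed, rose or fell in edgeR. Of 25 other fibroblast matrix genes, 1 rose in TPMPik3ca and the same gene rose in TPMPik3r1 against TPM: Ogn, osteoglycin, a small leucine-rich proteoglycan. DESeq2 called 4 higher in TPMPik3ca, Fbn1, Lox, Ogn and Pcolce, beside 16% of all genes called in either direction. It called 2 higher in TPMPik3r1, Ogn and Pcolce, beside 18.1%. Neither count is above these shares. Ogn was at 20.6 and 6.2 CPM in TPM, 134 and 100.1 CPM in TPMPik3ca, and 135 and 192 CPM in TPMPik3r1, with edgeR adjusted p-values of 0.0427 and 0.0260. Without TPMPik3r1 replicate 1 or 2 the latter was 0.0352 or 0.0262. The median of the 25 was 1.63 in TPMPik3ca and 0.18 in TPMPik3r1 against TPM, and Col1a1 had values of 1.58 with an SE of 1.08 and -0.37 with an SE of 1.05. Against the mean of TPMPik3ca and TPMPik3r1, 2 of the 25 were lower in TPK, Ogn and Col6a1, a chain of type VI collagen, the latter at 220.1 and 86.2 CPM in TPK against between 451 and 1017 CPM in the 4 others. DESeq2 called 7 in that comparison, 1 higher and 6 lower in TPK, beside 28.4% of all genes, so that count is near the share. It called 3 lower in TPMPik3r1 than in TPMPik3ca, Fbln2, Lox and Mfap5, beside 4.96%. Of 10 small leucine-rich proteoglycans other than Dcn and Lum, Ogn alone passed in edgeR, in the same 3 comparisons, while DESeq2 also called Epyc, epiphycan, higher in TPMPik3ca than in TPM and in TPMPik3r1, and Aspn and Omd lower in TPK than in the mean. Bgn, biglycan, had a value of 1.83 with an SE of 0.82 in TPMPik3ca against TPM and did not pass. Within TPMPik3r1 the 2 libraries were closer for Ogn than for Dcn and Lum.

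Of 7 SPARC family genes, 6 were tested. Spock2, a testican, was at 7.5 and 2.6 CPM in TPM and 50.1 and 98.7 CPM in TPMPik3r1 and rose there, with a log2 fold change of 3.88, an SE of 0.80 and an edgeR adjusted p of 0.0431. In TPMPik3ca it was at 70.4 and 24.2 CPM, with a log2 fold change against TPM of 3.23, an SE of 0.78 and an edgeR adjusted p of 0.0779, and DESeq2 called it in both models. The edgeR adjusted p in TPMPik3r1 was 0.0463 without replicate 1 and 0.0508 without replicate 2, where the call was lost. Spock2 and Smoc1 were also lower in TPK than in the mean of TPMPik3ca and TPMPik3r1, at 1.1 and 0.53 CPM and 0.80 and 1.1 CPM in TPK. Sparcl1, the closest relative of Sparc, was at between 39.9 and 341 CPM and passed in no comparison in edgeR, while DESeq2 called it lower in TPK than in the mean of TPMPik3ca and TPMPik3r1, where the edgeR log2 fold change was -1.80 with an SE of 0.64. DESeq2 also called Smoc1 lower in TPK than in TPM.

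Of 4 PDGF ligand genes, 0 passed in any of the 5 comparisons in edgeR. At an unadjusted p under 0.05 edgeR gave 1 in TPMPik3ca and 3 in TPMPik3r1 against TPM, beside 22.1 and 23.1% of all genes. DESeq2 called these, beside 16 and 18.1%: Pdgfa lower in both, and Pdgfc lower and Pdgfd higher in TPMPik3r1. Pdgfa, a ligand of the alpha receptor, was at 32.7 and 31.5 CPM in TPK, 40.0 and 47.1 CPM in TPM, 5.9 and 14.4 CPM in TPMPik3ca, and 3.5 and 11.5 CPM in TPMPik3r1. All 4 libraries of TPMPik3ca and TPMPik3r1 were below the other 4, with edgeR adjusted p-values of 0.133 and 0.0815 against TPM. Pdgfb, whose product binds both receptors, was at between 14.5 and 103 CPM with the models overlapping in part. Of 10 receptors for fibronectin and periostin, 1 fell in TPMPik3ca against TPM: Itgb6, the beta chain of an epithelial integrin, at 33.8 and 18.0 CPM in TPM and at 0 and 0.056 CPM in TPMPik3ca. In TPMPik3r1, Itgb6 fell to 0.039 and 0 CPM, and Itga9, an integrin alpha chain, rose from 10.2 and 13.2 CPM to 49.8 and 54.2 CPM, with an edgeR adjusted p of 0.0431. Without TPMPik3r1 replicate 1 it was 0.0668, so that call of Itga9 was lost. Itga9 was at 30.4 and 61.3 CPM in TPMPik3ca, with an edgeR adjusted p of 0.0650 against TPM, and DESeq2 called it in both models. Itgb6 and Sdc4, syndecan-4, were higher and Itga9 lower in TPK than in the mean of TPMPik3ca and TPMPik3r1. Itga5, the alpha chain of the main fibronectin receptor, had a value of 1.20 with an SE of 0.45 in TPMPik3ca against TPM and did not pass.

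Of 10 transcription factors of mesenchymal cells, Zeb2, a repressor of Cdh1, rose in TPMPik3ca against TPM, and Zeb1 and Zeb2 rose in TPMPik3r1 while Snai2 fell. DESeq2 called Snai1, Zeb1 and Zeb2 higher and Snai2 lower in TPMPik3ca too, so these changes are not shown to differ between the 2 models. Zeb2 was at 31.9 and 22.1 CPM in TPM, 117 and 134 CPM in TPMPik3ca, and 114 and 142 CPM in TPMPik3r1, with log2 fold changes of 2.21 (SE 0.35) and 2.24 (SE 0.35) and edgeR adjusted p-values of 0.0261 and 0.0210. Zeb1 was at 20.1 and 14.6 CPM in TPM, 46.8 and 44.2 CPM in TPMPik3ca, and 46.5 and 51.0 CPM in TPMPik3r1. Snai2 was at 20.7 and 14.1 CPM in TPM, 5.2 and 4.2 CPM in TPMPik3ca, and 3.0 and 2.4 CPM in TPMPik3r1. These 3 factors were close in the 2 TPMPik3r1 libraries. Without replicate 1 of TPMPik3r1, Zeb1 had an edgeR adjusted p of 0.0545 against TPM and was not called, while Zeb2 and Snai2 were called without either library. In TPK against the mean of the 2, Zeb1 and Zeb2 were lower and Snai2 was higher. Twist1 and Twist2 passed in none of the 5 comparisons in edgeR, and DESeq2 called Twist1 lower in TPK than in that mean.

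Counts in lists of fibroblast states are set beside the shares of all tested genes. In TPMPik3ca and TPMPik3r1 against TPM, edgeR called 3.48 and 5.58% of all genes, so 0 or 1 call in 10 or 12 genes is near that share. At an unadjusted p under 0.05 edgeR gave 22.1 and 23.1%, and DESeq2 called 16 and 18.1%. In TPK against TPM these shares were 0, 7.17 and 1.51%. Of 12 myofibroblast genes, 0 passed in edgeR in TPMPik3ca or TPMPik3r1 against TPM, with 2 and 4 at an unadjusted p under 0.05 and 2 and 4 called by DESeq2, and Ltbp2, a latent TGF-beta binding protein, was higher in TPK than in the mean of these, at 147 and 131 CPM against between 9.5 and 92.7 CPM. Acta2, smooth muscle actin, was at between 10.6 and 379 CPM, with both ends of that range in TPMPik3r1. Of 12 inflammatory and adventitial fibroblast genes, 0 passed in edgeR against TPM in any model, with 3 in TPMPik3ca, 2 in TPMPik3r1 and 1 in TPK at an unadjusted p under 0.05 and 4, 2 and 0 called by DESeq2, and Has2, a hyaluronan synthase, and Sfrp1, a Wnt inhibitor, were higher in TPK than in that mean. Of 10 uterine stroma genes, 0 passed in edgeR in any of the 5 comparisons, with at most 2 in 1 comparison at an unadjusted p under 0.05 and at most 1 called by DESeq2. Hand2, a factor of endometrial stroma, was at 0.23 and 0.89 CPM in TPMPik3r1, at 12.4 and 91.6 CPM in TPMPik3ca, and at up to 4.3 CPM elsewhere. Of 10 pericyte genes, 1 rose in TPMPik3r1 against TPM, Abcc9, a potassium channel regulator, from 7.6 and 10.9 CPM to 44.5 and 85.3 CPM, with an edgeR adjusted p of 0.0330, which was 0.0302 and 0.0388 without replicate 1 and without replicate 2. In TPMPik3ca Abcc9 was at 36.5 and 76.9 CPM, with a log2 fold change of 2.61 and an edgeR adjusted p of 0.0500065, on the threshold, and DESeq2 called it in both models. Abcc9 was also lower in TPK than in the mean of TPMPik3ca and TPMPik3r1. Rgs5, a pericyte marker, was at between 5.7 and 77.1 CPM and did not pass.

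Markers of other cell types moved with the models, and their part in the results above was not tested. The summed level of 6 epithelial genes was between 2941 and 5498 CPM in TPK and TPM, 73.3 and 23.7 CPM in TPMPik3ca, and 6.5 and 27.4 CPM in TPMPik3r1. Against TPM, 4 of the 6 fell in TPMPik3ca and 6 of the 6 in TPMPik3r1, and Cdh1, E-cadherin, was at 787 and 698 CPM in TPM against 7.0 and 5.3 CPM in TPMPik3ca and 0.27 and 0.50 CPM in TPMPik3r1. All 6 were higher in TPK than in the mean of TPMPik3ca and TPMPik3r1. Of 6 squamous genes, 5 fell in TPMPik3ca and 5 in TPMPik3r1 against TPM, and all 6 were higher in TPK than in that mean. Krt5, Krt6a, Krt17 and Dsg3 had 0 counts in both TPMPik3r1 libraries. TPMPik3ca and TPMPik3r1 thus held little RNA of these epithelial and squamous markers, although the label names EC tumor organoids. In stained sections, by contrast, the study described well-differentiated glands in tumors of both models. How the RNA levels relate to those sections was not tested. The samples with high Vim and Fap had low epithelial levels, but TPMPik3r1 replicate 1 had the lowest epithelial sum and Vim and Fap at the level of TPK and TPM.

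The summed level of 7 steroidogenic and gonadal stromal genes was 5182 and 708 CPM in TPMPik3r1 and between 14.4 and 46.5 CPM in the other 6 libraries. Of the 7, Gata4 rose in TPMPik3ca against TPM, and Gata4 and Nr5a1, a regulator of steroid synthesis, rose in TPMPik3r1, with both lower in TPK than in the mean of these models. Both were called in TPMPik3r1 without either of its libraries, and DESeq2 also called Cyp11a1 and Star there. Gata4 had 0 counts in both TPM libraries, 5.3 and 11.3 CPM in TPMPik3ca, and 137 and 183 CPM in TPMPik3r1. TPMPik3r1 replicate 1, the lowest library for 6 of the 10 genes, had the highest Nr5a1, 753 CPM, and of 5 neutrophil genes it had the lowest sum, 14.4 CPM against between 291 and 2187 CPM elsewhere. Macrophage genes summed to 314 and 717 CPM in TPMPik3r1, 1082 and 4612 CPM in TPMPik3ca, 964 and 465 CPM in TPM, and 2908 and 1687 CPM in TPK. Endothelial genes summed to between 51.7 and 153 CPM in TPK and TPM, 388 and 543 CPM in TPMPik3ca, and 157 and 608 CPM in TPMPik3r1, with all 4 libraries of TPMPik3ca and TPMPik3r1 above the other 4. Of the macrophage, neutrophil, endothelial, T cell and neuron genes, 0 passed in edgeR in any of the 5 comparisons. In TPMPik3ca against TPM, however, 6 of 7 macrophage and 5 of 6 endothelial genes had an unadjusted edgeR p under 0.05, beside 22.1% of all genes. DESeq2 called 5 and 2 of these lists higher, beside 16% called in either direction. In TPMPik3r1 against TPM, 0 of 7 macrophage and 2 of 6 endothelial genes had an unadjusted edgeR p under 0.05, beside 23.1% of all genes. DESeq2 called 0 and 2, beside 18.1%. No neutrophil gene was called by either tool, and DESeq2 called at most 2 T cell and 2 neuron genes in 1 comparison. Of 10 pericyte genes the sum was 183 CPM in TPMPik3r1 replicate 1 and between 472 and 904 CPM elsewhere.

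**Figure D5:**
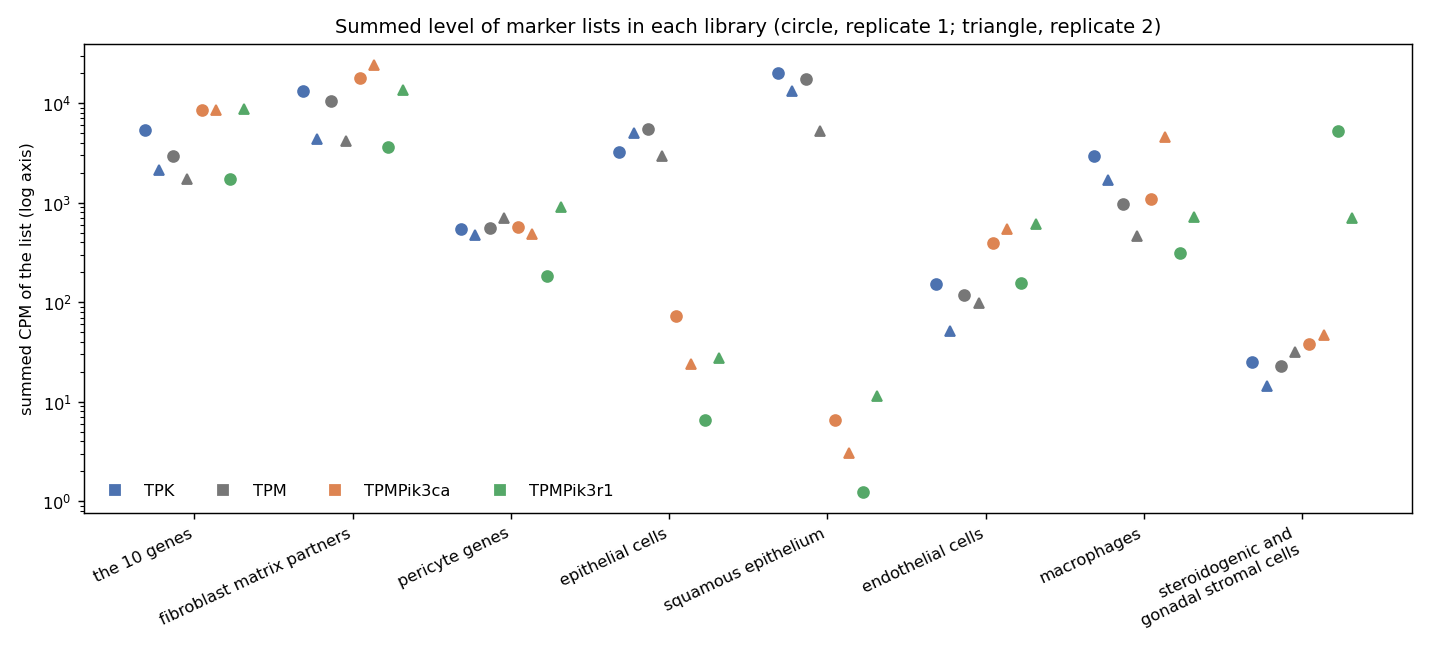
Points give the summed CPM of each marker list on a log axis in each library, circles for replicate 1 and triangles for replicate 2. The epithelial sums are at or below 73.3 CPM in TPMPik3ca and TPMPik3r1 and at least 2941 CPM in TPK and TPM, and the steroidogenic sums are at 5182 and 708 CPM in TPMPik3r1.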

How the data were processed

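RNA of 8 libraries, 2 for each of 4 models, was sequenced as paired reads. The sequencing company trimmed the reads, and the authors aligned them to mm10 with STAR. The counts deposited by the authors are whole numbers of reads per gene symbol, headed TPMS for TPM, and the counter and its annotation are not given in the sources used here. A signal table was also deposited by the authors, made by dividing the counts of a library by 1 DESeq2 size factor, between 0.976 and 0.988 times the recomputed ones, and it was used only for that check. Of the 24419 symbols, 25 had become dates and 4109 had 0 counts in every library. Results on some engineered genes are not reported here.

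The counts were tested with edgeR 4.0.16 in R 4.3.3: filterByExpr left 15875 genes, libraries were scaled by TMM, and all 8 libraries entered 1 quasi-likelihood model with the tumor model as its only factor (common dispersion 0.269). Adjustment of p-values followed Benjamini and Hochberg over all tested genes, and a gene was called at an adjusted p under 0.05. DESeq2 1.42.0 was an alternative, as were other scalings, no filter, a replicate block, fits of only the models compared, the threshold of the study (a log2 fold change beyond 1 with an unadjusted p under 0.05), and leaving out each library. The threshold of the study was applied to edgeR's values unless DESeq2 is named, whereas the study used DESeq2. Both tools were tested on simulated data. Log2 CPM used a prior count of 2. The floor of 3 counts covers counting error only. Exon lengths and coordinates were taken from GENCODE M21 (GRCm38), and start sites and sequences from RefSeq, with figures drawn in matplotlib 3.10.9. Lengths used here may differ from those of the annotation behind the counts.

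Replicates came from separate mice per the study. With 2 libraries per model an exact permutation test of 1 gene between 2 models cannot go below 0.333, so none was run. Over the 4 models, where it can reach 0.00952, it was added after seeing the data, with the within-pair sum of squares of log2 CPM as the statistic, as were fits without each library for every one of the 10 genes and for the related genes called. The 10 genes and the lists of related genes and markers (fibroblast matrix partners, myofibroblasts, inflammatory and adventitial fibroblasts, uterine stroma, pericytes, PDGF ligands, fibronectin and periostin receptors, mesenchymal transcription factors, SPARC family, small leucine-rich proteoglycans, epithelium, squamous epithelium, macrophages, neutrophils, endothelium, T cells, neurons, steroidogenic cells) were chosen with earlier results of these data known. All 10 genes are named. Of every list, the first 2 genes and, in each comparison, the 2 called genes with the largest fold change in each direction were open to naming, and the genes named for their likeness were the 5 with the highest r to the mean profile. Genes named because DESeq2 alone called them were chosen after their values were seen. Where a fold was fitted against a model at or near 0 counts, only the levels are given.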

Additional observations from a re-analysis of the deposited data

Results flagged for a closer look

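Postn and Pdgfra lay on opposite sides of TPM in TPMPik3ca and TPMPik3r1: both TPMPik3ca libraries were above both TPM libraries and both TPMPik3r1 libraries below them. Of all tested genes, 29.1% met the first condition and 28.4% the second, and the share meeting both was not computed. The unadjusted edgeR p against TPM was 0.141 for Postn and 0.163 for Pdgfra in TPMPik3ca. In TPMPik3r1 it was 0.00855 for Postn and 0.173 for Pdgfra. The difference between the 2 effects is the contrast of TPMPik3r1 with TPMPik3ca. It was -4.00 on the log2 scale for Postn, with an edgeR adjusted p of 0.364 and a DESeq2 adjusted p of 3.31e-05. For Pdgfra it was -2.78, with an edgeR adjusted p of 0.389 and a DESeq2 adjusted p of 0.0453. In edgeR the difference thus did not pass for either gene. The cause was not tested.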

How the results depend on the processing

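Counts of the 10 genes called depended on the tool and on TPMPik3r1. Against 0 in every comparison in edgeR, DESeq2 called 3 for any difference, 2 for TPMPik3ca against TPM, 1 for TPMPik3r1 against TPM, 2 for TPK against the mean of TPMPik3ca and TPMPik3r1, and 2 for TPMPik3r1 against TPMPik3ca. At the threshold of the study, applied to edgeR's values, the last 4 of these counts were 2, 1, 2 and 2. By DESeq2's values Sparc also passed it in TPMPik3ca against TPM, and in TPMPik3r1 against TPM so did Vim. A fit of only the models compared called 3 in TPMPik3ca against TPM, beside 7.52% of all genes. The exact permutation test of each gene, added after seeing the data, gave 1 for any difference, Postn, at an unadjusted p under 0.05. With each library left out in turn, calls of the 10 genes changed only in fits without a TPMPik3r1 library. Wherever they changed, a larger share of all tested genes was called as well. Over all fits that left out a library, the median of the 10 genes ran from -1.62 to 1.26 for TPMPik3r1 against TPM. For TPMPik3r1 against TPMPik3ca it ran from -3.32 to -0.093. In both, the ends were without TPMPik3r1 replicate 2 and without replicate 1. In TPK against TPM the median ran from -0.41 to 0.87, and in TPK against that mean from -1.51 to 0.61. Of 50 log2 fold changes, 10 genes in 5 comparisons, 29 turned sign in at least 1 fit that left out a library. They were 3 in TPMPik3ca against TPM, 6 in TPMPik3r1 against TPM, 7 in TPK against TPM, 7 in TPK against that mean and 6 in TPMPik3r1 against TPMPik3ca. Among the values given above these included those of Thy1 (-0.73 to 0.86), Lum (-0.81 to 2.07) and Pdgfrb (-0.0067 to 0.45) in TPMPik3ca against TPM, and of Fn1 (-1.74 to 2.96) and Fap (-0.00065 to 1.95) in TPMPik3r1 against TPM. In TPMPik3r1 against TPM, Dcn (-1.50 to 2.36), Pdgfrb (-1.28 to 1.38), Lum (-3.91 to 0.40) and Thy1 (-2.88 to 0.11) turned too, and Vim, Sparc, Postn and Pdgfra did not. The cause was not tested. Of the related and marker genes called in edgeR, 4 of 21 were lost in TPMPik3r1 against TPM without replicate 1 of TPMPik3r1, Itga9, Krt18, Krt8 and Zeb1, and 1 without replicate 2, Spock2, and 3 of 28 in TPK against that mean without replicate 2, Itga9, Ltbp2 and Sfrp1. A lone library left in a model was assumed to vary like the others. DESeq2's size factors, library size alone, no filter on low counts and, for TPK, pooling TPMPik3ca and TPMPik3r1 changed no call of the 10 genes.

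The replicate numbers did not pair the libraries: the correlations of same-numbered deviations lay between -0.063 and -0.0062 over 6 pairs of models. With the replicate block 0 of the 10 genes were called in any comparison, with medians of 1.38 for TPMPik3ca against TPM, 0.75 for TPMPik3r1 against TPM, 0.32 for TPK against TPM, -0.52 for TPK against the mean and -0.98 for TPMPik3r1 against TPMPik3ca. Over all tested genes, 553 were called in TPMPik3ca against TPM, 362 with the block, 1194 in the fit of only those models and 2547 by DESeq2, and 886, 557, 53 and 2867 in TPMPik3r1 against TPM. The counts of the 10 genes were at least 92 in every library, and whether depth limited their calls was not tested.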
